A study of Arabidopsis thaliana with 18 samples.

Results

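The genes described here are 51 regulators and effectors of the plant cell cycle, chosen by name and role from the 32833 genes of the count files. The rule uses no measured value, but the set was proposed with earlier results of these data known. They are 7 A-type, 9 B-type and 10 D-type cyclins, 5 cyclin-dependent kinases (CDKs), the CDK-binding proteins CKS1 and CKS2 with the kinase WEE1, 7 KRP inhibitors, 7 proteins that carry out mitosis and cytokinesis, and 3 CCS52 proteins. Poly(A) RNA of whole Arabidopsis thaliana Col-0 seedlings was sequenced in 18 libraries, 3 for each of 6 groups. Wild type, als3-1 and sog1-7 seedlings grew in constant light on gel at pH 4.2, without AlCl3 or with 1.5 mM of it (the 0 mM and 1.5 mM groups), and whole seedlings were collected 84 h after sowing. The als3-1 mutant is named for the ALS3 gene, which is known for aluminium tolerance, and sog1-7 carries a loss-of-function allele of SOG1, per the series' design text. Both mutants are in the Col-0 ecotype, and each was grown as a single genotype at both concentrations. The stated purpose was to find genes downstream of SOG1 that act in the shift of the aluminium-treated root from cell division to endocycles, so the contrast of als3-1 with sog1-7 under aluminium was central.

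In plants, D-type cyclins with CDKA;1 drive entry into the cycle, A-type cyclins act from S phase into mitosis, and B-type cyclins with CDKB kinases act in G2 and mitosis. KRP proteins inhibit these kinases, WEE1 holds them back when DNA is damaged, and the anaphase-promoting complex destroys mitotic cyclins with CDC20 or CCS52 as its activator. Endocycles replicate DNA without mitosis, and CCS52A proteins are known to favour them. SOG1 is the transcription factor of the plant DNA damage response, and CYCB1;1 is known as a gene that DNA damage induces while other mitotic cyclins are repressed.

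Many mitotic genes of plants carry the mitosis-specific activator element, with the core AACGG, which MYB3R transcription factors bind. The 250 bases before the annotated start follow for CYCB1;3 (AT3G11520), CYCB1;2 (AT5G06150) and CYCB2;3 (AT1G20610), the members called most often, and for CYCB1;1 (AT4G37490), whose difference with aluminium in als3-1 had the opposite sign. All 4 genes lie on the minus strand. In the same order, the windows in TAIR10.1 are chr3:3627274-3627523, chr5:1861704-1861953, chr1:7137829-7138078 and chr4:17624309-17624558, and none overlaps another protein-coding gene. Each is written 5′ to 3′ in the direction of its gene, with AACGG, or its reverse complement CCGTT, in capitals.
CYCB1;3: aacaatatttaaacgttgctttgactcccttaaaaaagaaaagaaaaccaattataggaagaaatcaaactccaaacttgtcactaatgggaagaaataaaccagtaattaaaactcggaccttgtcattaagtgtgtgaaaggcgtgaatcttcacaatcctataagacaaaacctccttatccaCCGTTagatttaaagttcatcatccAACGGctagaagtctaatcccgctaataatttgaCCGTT
CYCB1;2: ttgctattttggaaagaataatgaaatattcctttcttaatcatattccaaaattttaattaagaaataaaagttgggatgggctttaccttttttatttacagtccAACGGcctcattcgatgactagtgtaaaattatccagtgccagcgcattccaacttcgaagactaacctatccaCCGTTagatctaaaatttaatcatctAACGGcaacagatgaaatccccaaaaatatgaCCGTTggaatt
CYCB2;3: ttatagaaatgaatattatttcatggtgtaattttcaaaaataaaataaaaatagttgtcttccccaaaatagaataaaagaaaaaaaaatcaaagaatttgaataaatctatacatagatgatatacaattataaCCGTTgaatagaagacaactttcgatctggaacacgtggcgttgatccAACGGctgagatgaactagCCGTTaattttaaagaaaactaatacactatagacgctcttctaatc
CYCB1;1: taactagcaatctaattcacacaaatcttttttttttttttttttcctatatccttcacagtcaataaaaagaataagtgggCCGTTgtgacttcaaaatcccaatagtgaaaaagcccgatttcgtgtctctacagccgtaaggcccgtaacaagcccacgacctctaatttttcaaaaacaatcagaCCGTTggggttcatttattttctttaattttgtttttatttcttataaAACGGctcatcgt
The second sequence holds 4 matches and the others hold 3 each. In the order printed, the match nearest to the start lies at bases -5 to -1, -11 to -7, -47 to -43 and -13 to -9.

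Over the 51 genes, AACGG on either strand was present in the 250 bases before 21 (41.2%), against 20.6% of 27443 protein-coding genes. The B-type cyclins held it in 6 of 9, the mitotic effectors in 5 of 7, the KRP genes in 4 of 7 and the A-type cyclins in 3 of 7. The D-type cyclins held it in 1 of 10, the CDKs in 1 of 5, the CKS and WEE1 genes in 1 of 3 and the CCS52 genes in 0 of 3. The motif that SOG1 is known to bind, CTT and AAG with any 7 bases between them, reads the same on both strands. It was present before 7 members (13.7%), against 9.71% of all genes. None of the 4 printed windows holds it. The E2F-type motifs TTTCCCGC and TTTGCCGC on either strand were present before 0 members, against 0.619% and 0.277% of all genes. These matches are descriptions of the letters in the window.

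Total counts per library, divided by 10 to the power 6, ran from 25.56 to 44.57 (median 35.09). Levels are given as CPM, counts divided by the scaled library total in the same units, and 3 counts corresponded to 0.0673 to 0.117. Reads on 4 ribosomal RNA genes made up 0.909% to 5.71% of 15 libraries but 0.0168%, 0.0174% and 0.0285% of replicate 2 of 3 groups (treated als3-1, untreated sog1-7 and treated sog1-7, in this order), called low-rRNA libraries here. The labels give no reason. KRP1 was at 29.6 to 36.6 CPM in these 3 and at 9.9 to 15.5 in the other 15, KRP2 at 23.4 to 27.8 against 11.3 to 16.3 and KRP4 at 26.1 to 27.5 against 15.1 to 24.4. CYCA3;2 at 14.5 to 16.6 against 17.8 to 27.4 CPM and CDKB1;1 at 6.9 to 8.81 against 9.39 to 16.1 were lower there. These 5 are the members whose values did not overlap between the 3 and the 15 libraries, and over all 21650 genes tested 7.8% were higher and 7.8% lower in this way. SOG1 was at 13.6 to 19.5 CPM in every group and ALS3 at 1.55 to 7.87, so neither transcript checks the genotype labels. Values are listed below in the order of replicates 2, 3 and 4. The labels do not state whether replicates were separate cultures, so the p-values cover the spread between the libraries alone, and this spread may be technical.

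Per length, as deposited FPKM values, which are scaled to transcript length and library size, the members spanned a wide range of levels. The mean over 18 libraries was above 10 FPKM for 26 members, between 1 and 10 for 24, and below 1 for CYCD7;1 alone, at 0 to 0.294 FPKM. The highest level was that of KNOLLE, the syntaxin that fuses vesicles at the division plane, at 24 to 61.1 FPKM (mean 37.5). CYCD3;2 followed at a mean of 33.6 FPKM, CDC20.1 at 26.7 and CDKA;1 at 26.1. Among the B-type cyclins, mean levels ran from 2.29 FPKM for CYCB2;1 to 18.6 for CYCB1;2. CDKA;1 stood above the mitotic kinases CDKB2;1 at 20.9, CDKB2;2 at 10.6, CDKB1;1 at 7.24 and CDKB1;2 at 7.14 FPKM. CCS52B, at 16.2 FPKM, stood above CCS52A1 at 10.1 and CCS52A2 at 2.42. The spread of each gene over the libraries is wide beside the gaps between neighbours in this order, as the plot of level per length shows.

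**Figure D1:**
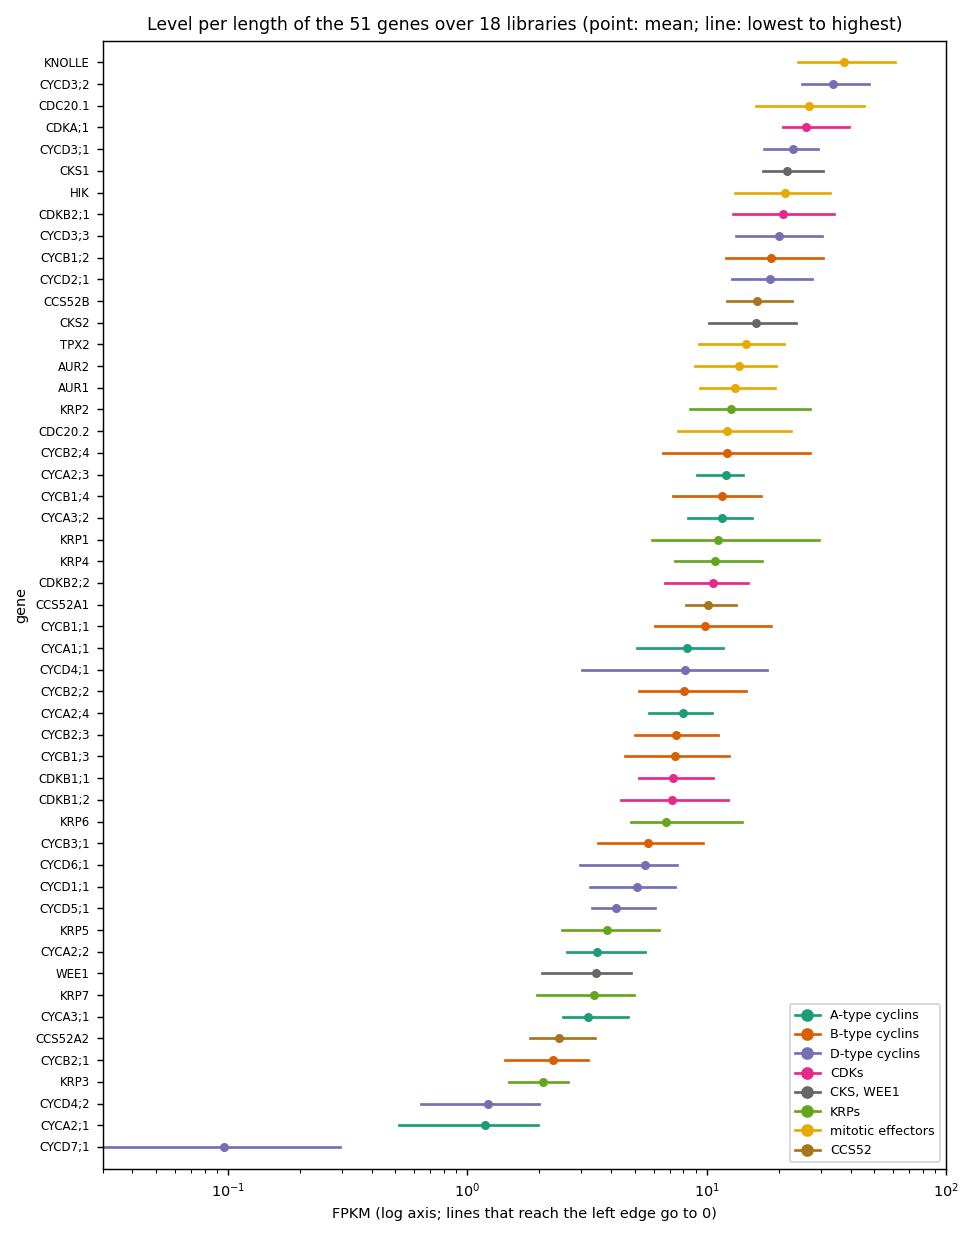
Deposited FPKM of the 51 genes on a log axis, with the mean over 18 libraries as a point and the lowest and highest library as the ends of a line, coloured by role. KNOLLE, CYCD3;2, CDC20.1 and CDKA;1 are at the top and CYCD7;1, which reaches 0, is at the bottom.

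Of the 51 genes, 50 passed the filter on low counts, and CYCD7;1 (0 to 0.47 CPM) did not. In the edgeR quasi-likelihood test, with Benjamini-Hochberg adjustment over 21650 genes, 20 members passed an adjusted p under 0.05 in at least 1 of 12 comparisons. A member that did so is called changed, and differences are log2 fold changes ± SE with 3 libraries against 3. This main fit holds no block for the replicate number, though the numbers were taken to pair the samples in 10 of 12 comparisons. A member that did not pass in it may thus pass with the block, and only some of these cases are given beside it. Where edgeR is named without a further setting, this main fit is meant. CYCB1;3 was called in 6 comparisons, CYCB1;2 and CYCB2;3 in 4 each, and CDKB2;2 and KRP6 in 3 each. By the main fit no A-type cyclin was called in any comparison, nor were CKS1, CKS2 and WEE1. Of the A-type cyclins, CYCA2;4 passed with DESeq2 at 0 mM in als3-1 against wild type (0.47, adjusted p = 0.0328, and 0.0107 with the replicate number as a block). In sog1-7 at 0 mM CYCA2;4 (0.41, adjusted p = 0.044) and CYCA1;1 (0.49, adjusted p = 0.0389) passed with DESeq2. Whole seedlings were sampled, so fewer dividing cells and less RNA per dividing cell cannot be told apart.

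**Figure D2:**
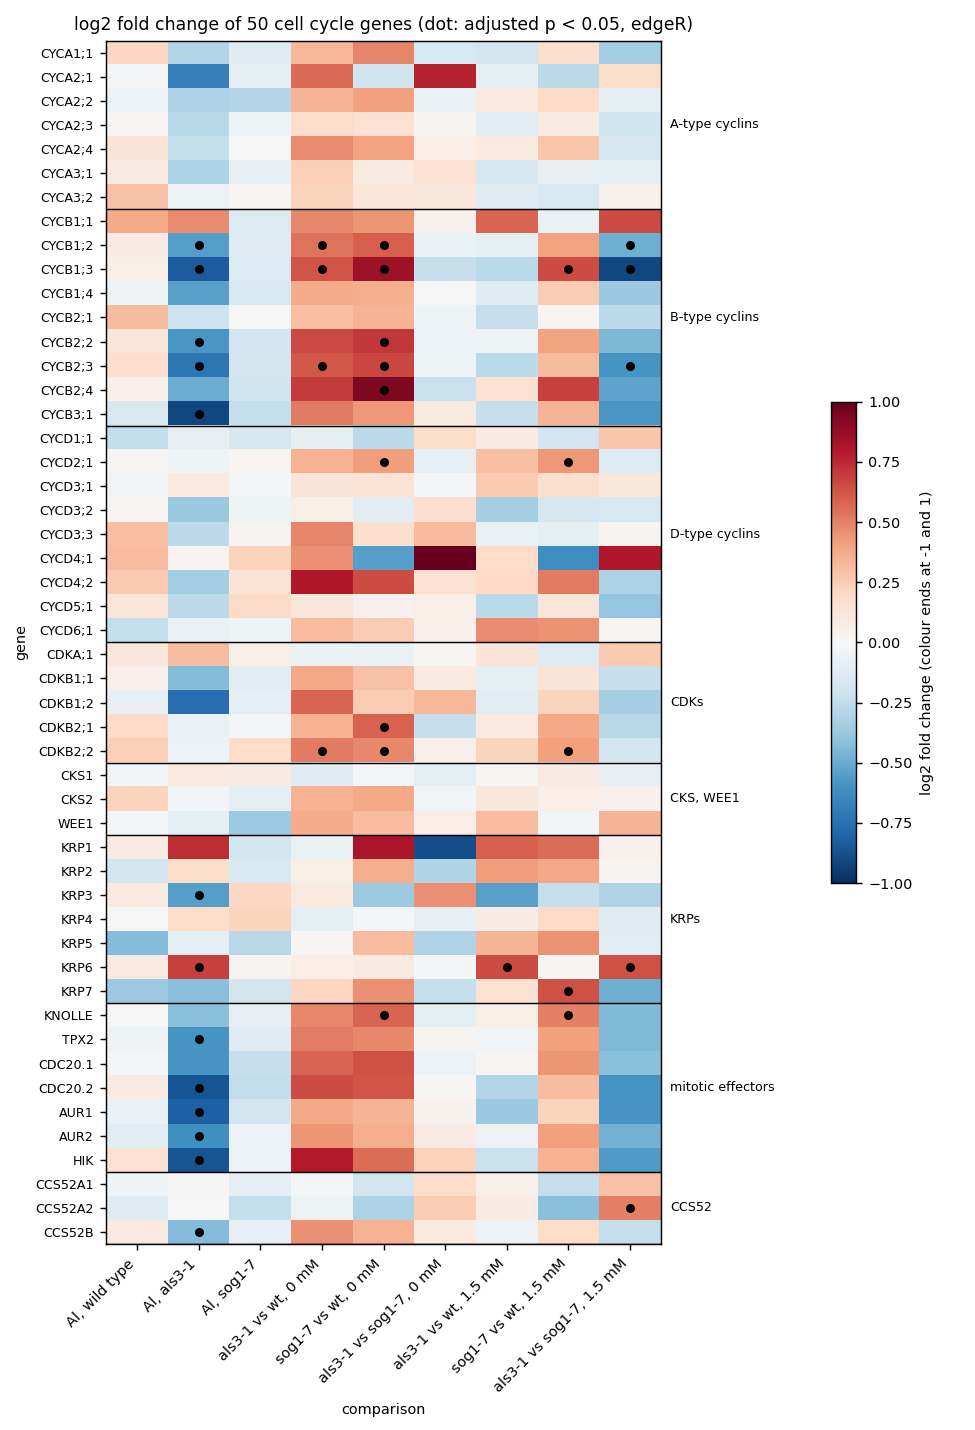
Log2 fold changes of the 50 tested genes (rows, by role) in the 9 comparisons of 2 groups (columns), from blue for lower to red for higher, with a black dot at an adjusted p under 0.05. Calls stand mostly in the rows of B-type cyclins and mitotic effectors, 5 and 5 of them in the column of aluminium in als3-1, while the columns of aluminium in wild type and in sog1-7 hold 0.

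Aluminium lowered 12 cell cycle genes of als3-1 seedlings and raised 1. Of the 50 members tested, 13 changed between 0 and 1.5 mM AlCl3 in als3-1 (26%), against 10.8% of all genes (6.29% lower and 4.56% higher). The 12 that fell were 5 B-type cyclins, 5 mitotic effectors, KRP3 and CCS52B, and the 1 that rose was KRP6. The median difference of the members was -0.29, with 39 of 50 below 0, beside a median of 0.02 over all genes. No overlap between the groups was seen for 23 members that were lower, 46.0% of those tested, against 15.1% of all genes. With the replicate number as a block 18 of 50 members were called, beside 18.9% of all genes. Without the low-rRNA libraries 10 were called, beside 9.7% of all genes, 9 of them among the 13. The count was 6, 8 and 8 without als3-1 0 mM replicate 2, 3 and 4, and 4 and 6 without als3-1 1.5 mM replicate 2 and 3.

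B-type cyclins made up the group with the most members called in this comparison, together with the mitotic effectors. CYCB1;3 (chromosome 3, 3625286 to 3627273), a mitotic cyclin, was at 16.1, 15.1 and 15.6 CPM at 0 mM and at 8.06, 9.1 and 9.23 at 1.5 mM. These groups are far apart. The fall of 0.83 ± 0.13 had the smallest adjusted p among the members (0.000712). CYCB2;3 (chromosome 1, 7134659 to 7137828) was at 25.7, 19.9 and 21.2 CPM and then at 13.1, 11.8 and 15.7, and fell by 0.72 ± 0.15 (adjusted p = 0.00681). CYCB1;2 (chromosome 5, 1859279 to 1861703) was at 45.8, 41.1 and 43.7 CPM and then at 30, 27.9 and 31.6. Its groups did not overlap either, with a fall of 0.55 ± 0.13 (adjusted p = 0.0105). CYCB3;1 went from 21.6, 23.1 and 15.4 to 8.31, 11.8 and 11.8 CPM, a fall of 0.91 ± 0.24 (adjusted p = 0.0223, and 0.11 without the low-rRNA libraries). CYCB2;2 went from 21.2, 17.1 and 18.1 to 14, 9.91 and 13.7 CPM, a fall of 0.58 ± 0.18 that was near the threshold (adjusted p = 0.0453). Another 3 B-type cyclins did not pass. CYCB1;4 had -0.54 ± 0.18 (adjusted p = 0.074, and 0.00479 with the block), CYCB2;4 had -0.50 ± 0.23 (adjusted p = 0.201) and CYCB2;1 had -0.21 ± 0.20 (adjusted p = 0.559).

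CYCB1;1 (chromosome 4, 17621886 to 17624308) was the only B-type cyclin whose difference with aluminium in als3-1 was above 0. It was at 20.4, 17.9 and 20.6 CPM at 0 mM and at 19.7, 34.4 and 27.4 at 1.5 mM. The low-rRNA library of the treated group, replicate 2, lay within the range of the untreated group and the other 2 lay above it. The difference of 0.47 ± 0.20 did not pass (adjusted p = 0.154). On leaving out the low-rRNA libraries it became 0.66 and passed (adjusted p = 0.00469). The gene had 13.4, 13.7 and 15 CPM in wild type at 0 mM and 17.6, 19.5 and 17.4 at 1.5 mM. These values did not overlap, but the difference of 0.37 ± 0.20 did not pass (adjusted p = 0.597). In sog1-7 it had 14.7, 19.6 and 23 CPM at 0 mM and 13.2, 20 and 18.7 at 1.5 mM, which overlap (-0.14 ± 0.20, adjusted p = 1).

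All 7 mitotic effectors were lower with aluminium in als3-1 by their estimates, with no overlap between the groups, and 5 passed. HIK, the kinesin HINKEL that acts in the phragmoplast during cytokinesis, was at 124, 118 and 110 CPM and then at 47.8, 70.8 and 75.4. This was a fall of 0.86 ± 0.21 (adjusted p = 0.0153), and the low-rRNA replicate 2 was the lowest. AUR1, an Aurora kinase of the spindle and cell plate, went from 27.8, 30.8 and 28 to 13.6, 17.1 and 18.5 CPM, a fall of 0.82 ± 0.19 (adjusted p = 0.01). Its close relative AUR2 went from 25.2, 22.8 and 25.6 to 12.1, 17.3 and 18.8 CPM and fell by 0.61 ± 0.19 (adjusted p = 0.0462, and 0.139 without the low-rRNA libraries). The call of AUR2 also ended with RLE scaling and without the filter (adjusted p = 0.0523 in each), and in 9 of 18 fits that left out 1 library. For both kinases the lowest treated library was again the low-rRNA one. CDC20.2, an activator of the anaphase-promoting complex, went from 31.7, 33.4 and 34.1 to 14.6, 18.8 and 21.2 CPM, a fall of 0.86 ± 0.22 (adjusted p = 0.017). TPX2, a spindle assembly factor, went from 57.6, 50.7 and 56.4 to 30.9, 38.1 and 40.5 CPM, a fall of 0.59 ± 0.16 (adjusted p = 0.0227, and 0.0772 without the low-rRNA libraries). The other two did not pass by edgeR, CDC20.1 with -0.59 ± 0.22 (adjusted p = 0.101, and 0.00665 with the block) and KNOLLE with -0.42 ± 0.14 (adjusted p = 0.0709, and 0.0468 with DESeq2). CDC20.1 and CDC20.2 are adjacent close copies, so reads may have been split between them. AUR1, AUR2, TPX2 and KNOLLE overlap a gene on the opposite strand, so part of their counts is uncertain.

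The inhibitors of CDKs did not move as a group. KRP6 (chromosome 3, 6616330 to 6617951) was at 8.78, 7.39 and 8.34 CPM at 0 mM and at 14.1, 13.9 and 11.3 at 1.5 mM. It was higher in each treated library and rose by 0.68 ± 0.15 (adjusted p = 0.00718). KRP3 went from 3.2, 3.13 and 3.33 to 2.42, 1.96 and 2.22 CPM, a fall of 0.55 ± 0.16 (adjusted p = 0.0348). Its call ended on leaving out any 1 of the als3-1 libraries (adjusted p = 0.0516 to 0.138) and without the filter (0.0574). KRP1 was at 13, 10.2 and 11.9 CPM and then at 33.5, 11.3 and 14.1. The high value is the low-rRNA library, the difference of 0.74 ± 0.42 did not pass (adjusted p = 0.302), and it became 0.11 on leaving out the low-rRNA libraries. KRP2 was at 16.3, 13.3 and 14.7 CPM and then at 23.4, 11.3 and 15.3, again with its high value in the low-rRNA library (0.18 ± 0.31, adjusted p = 0.771). KRP7 was at 3.85, 3.93 and 4.98 CPM and then at 3.04, 3.07 and 3.43. Its groups did not overlap, and the difference of -0.42 ± 0.18 did not pass (adjusted p = 0.149). KRP5, at 3.88, 4.49 and 4.77 CPM and then 4.26, 4.26 and 3.76, and KRP4 differed by -0.10 ± 0.17 and 0.18 ± 0.24. For the 7 KRP genes, 1 rose, 1 fell and 5 did not pass.

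CCS52B, the member of its family with a mitotic pattern, was at 35, 34.1 and 38.1 CPM at 0 mM and at 25.1, 27.8 and 26.8 at 1.5 mM in als3-1. It fell by 0.43 ± 0.12 (adjusted p = 0.0296, and 0.0948 without the low-rRNA libraries). The call of CCS52B ended on leaving out any 1 of the als3-1 libraries (adjusted p = 0.0537 to 0.112). CCS52B overlaps genes on the opposite strand, so part of its counts is uncertain. CCS52A1, an activator of the anaphase-promoting complex known for promoting endocycles, was at 29.3, 26 and 23.7 CPM and then at 26.5, 29.2 and 23.9. Its groups overlapped and its difference was 0.01 ± 0.10 (adjusted p = 0.952). CDKA;1, the kinase used throughout the cycle, was at 47.1, 39.3 and 42.2 CPM and then at 57.2, 51.8 and 50.4. It was higher in each treated library by 0.31 ± 0.11, which did not pass (adjusted p = 0.0811) but passed with the replicate number as a block (adjusted p = 0.00474) and with DESeq2 (adjusted p = 0.0311). WEE1 was at 10.2, 10.1 and 6.28 CPM and then at 7.71, 9.75 and 7.5, which overlap (-0.09 ± 0.22, adjusted p = 0.844). CKS1, a small protein that binds CDKs, overlapped between the groups (25.3, 19.3 and 22.2 CPM at 1.5 mM, difference 0.10 ± 0.14, adjusted p = 0.728). CYCA2;3, the A-type cyclin with the highest mean log CPM, differed by -0.28 ± 0.12 (adjusted p = 0.156, and 0.026 with the block). All 7 A-type estimates were below 0, from -0.68 to -0.05 with a median of -0.29, and 0 were called by edgeR or DESeq2, with 1 at an unadjusted p under 0.05. Of the 9 D-type cyclins tested, 0 were called by edgeR or DESeq2 and 1 had an unadjusted p under 0.05, and their median was -0.08. With the block CYCD3;2 passed (-0.35, adjusted p = 0.0391). Among the 5 CDKs 0 were called, 1 had an unadjusted p under 0.05, and the median was -0.07. With DESeq2 1 of the CDKs, CDKA;1, passed.

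**Figure D3:**
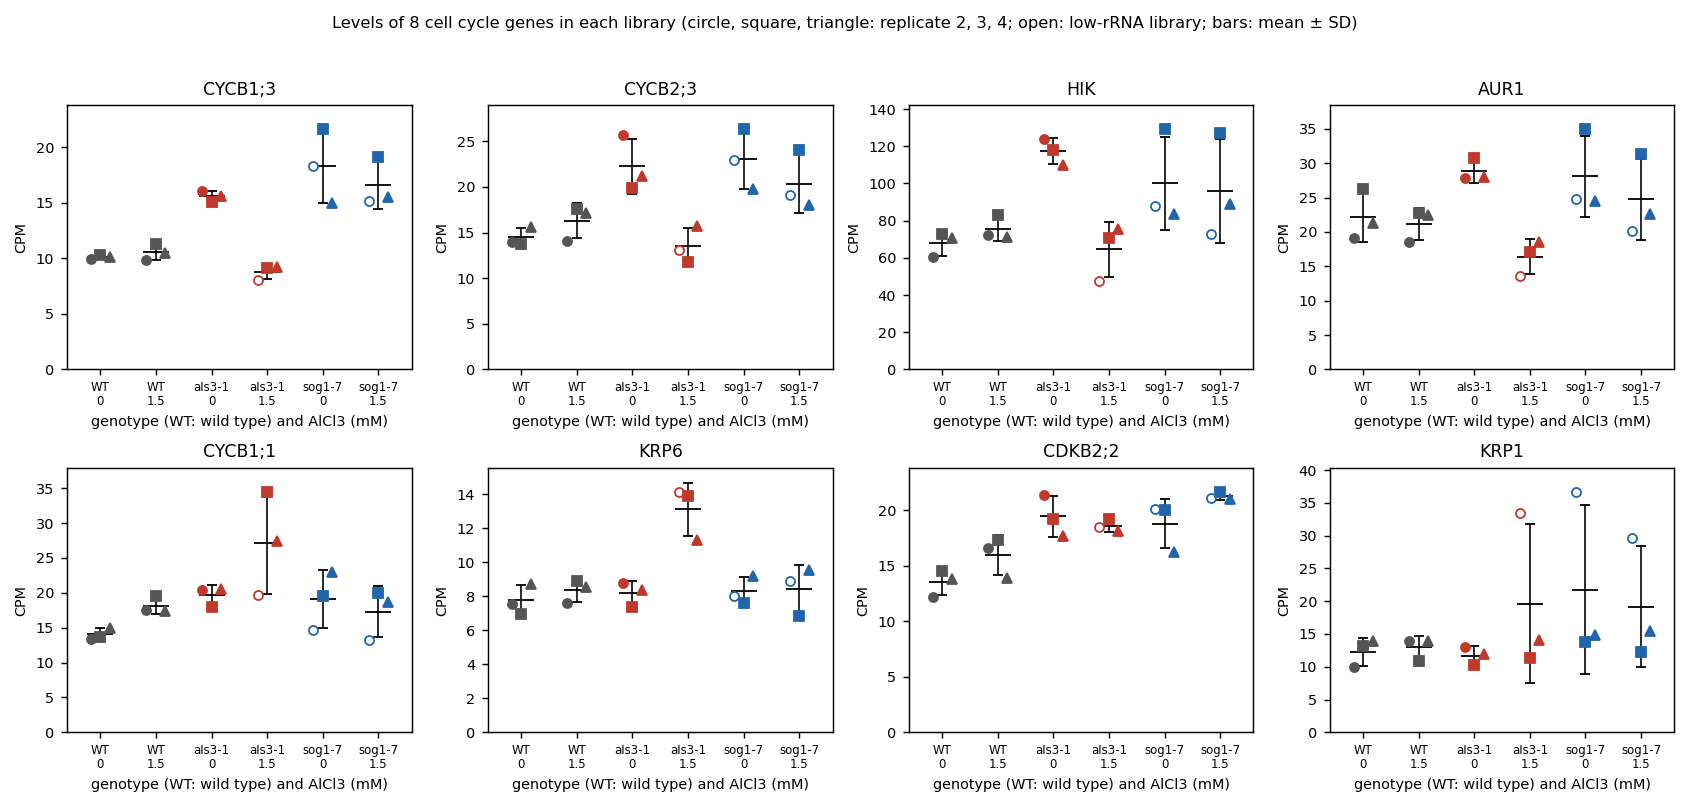
CPM of 8 members in each of the 18 libraries, with symbols for replicates 2, 3 and 4, open symbols for low-rRNA libraries and bars for mean ± SD of 3 libraries. CYCB1;3 in als3-1 lies between 15.1 and 16.1 CPM at 0 mM and between 8.06 and 9.23 at 1.5 mM, KRP6 lies between 11.3 and 14.1 in treated als3-1, and KRP1 is at 29.6 CPM or more in the 3 low-rRNA libraries.

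Markers of root tissue were lower in the same comparison. Of 5 root markers 4 fell in the test, with differences of -3.96 ± 0.27 for AGP30, an arabinogalactan protein, and -4.17 ± 0.61 for the aquaporin TIP2;3. The summed level of the 5 was 6250 to 8340 CPM at 0 mM and 5520 to 9070 at 1.5 mM. Most of this sum was PYK10, the 1 root marker that did not fall, at 5590, 6670 and 7830 CPM and then at 5300, 7720 and 8820. The sum thus says little about the other 4. Among 6 root meristem markers, the transcription factors PLT1 (-1.77 ± 0.25) and PLT2 (-1.14 ± 0.21) fell, and the summed level of the 6 was 111 to 149 CPM and then 121 to 129. CLV1, a shoot meristem gene, rose by 0.56 ± 0.17 as 1 of 4 tested, and FAMA of the stomatal lineage by 0.70 ± 0.21 as 1 of 6. Of 7 photosynthesis markers 0 passed by edgeR and 0 had an unadjusted p under 0.05, but all 7 estimates were above 0 (median 0.66), and their summed level was 8420 to 16400 CPM and then 15200 to 19000. None of these markers stood at 0 throughout a group. Their part in the differences of the cell cycle genes was not tested.

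Genes of the cell cycle outside the 51 were called as well. Of 17 further mitotic genes, 3 fell with aluminium in als3-1 and all 17 estimates were below 0 (median -0.43). MAP65-3, a microtubule crosslinker of the phragmoplast, fell (-0.73 ± 0.18, adjusted p = 0.0146), as did the centromeric histone CENH3 (-0.64 ± 0.17, adjusted p = 0.0229) and the spindle checkpoint gene BUBR1 (-0.60 ± 0.14, adjusted p = 0.0125). Of 18 genes of DNA replication and its control, 2 fell and 1 rose, with a median of 0.03. CDT1B, which licenses replication origins, fell (-0.93 ± 0.20, adjusted p = 0.0079), as did DEL1, an atypical E2F protein (-0.40 ± 0.12, adjusted p = 0.0341), and E2FC rose by 0.41 ± 0.12 (adjusted p = 0.0461). SMR7, a CDK inhibitor of the SIAMESE-RELATED family induced by DNA damage, was at 0.529, 0.532 and 0.543 CPM at 0 mM and at 11.7, 19.2 and 10.7 at 1.5 mM. SMR7 rose by 4.69 ± 0.49 (adjusted p = 1.8e-05). It was 1 of 4 tested in its family, of which SMR2, SMR3, SMR6 and SMR8 were left out because their names did not match the reference.

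**Figure D4:**
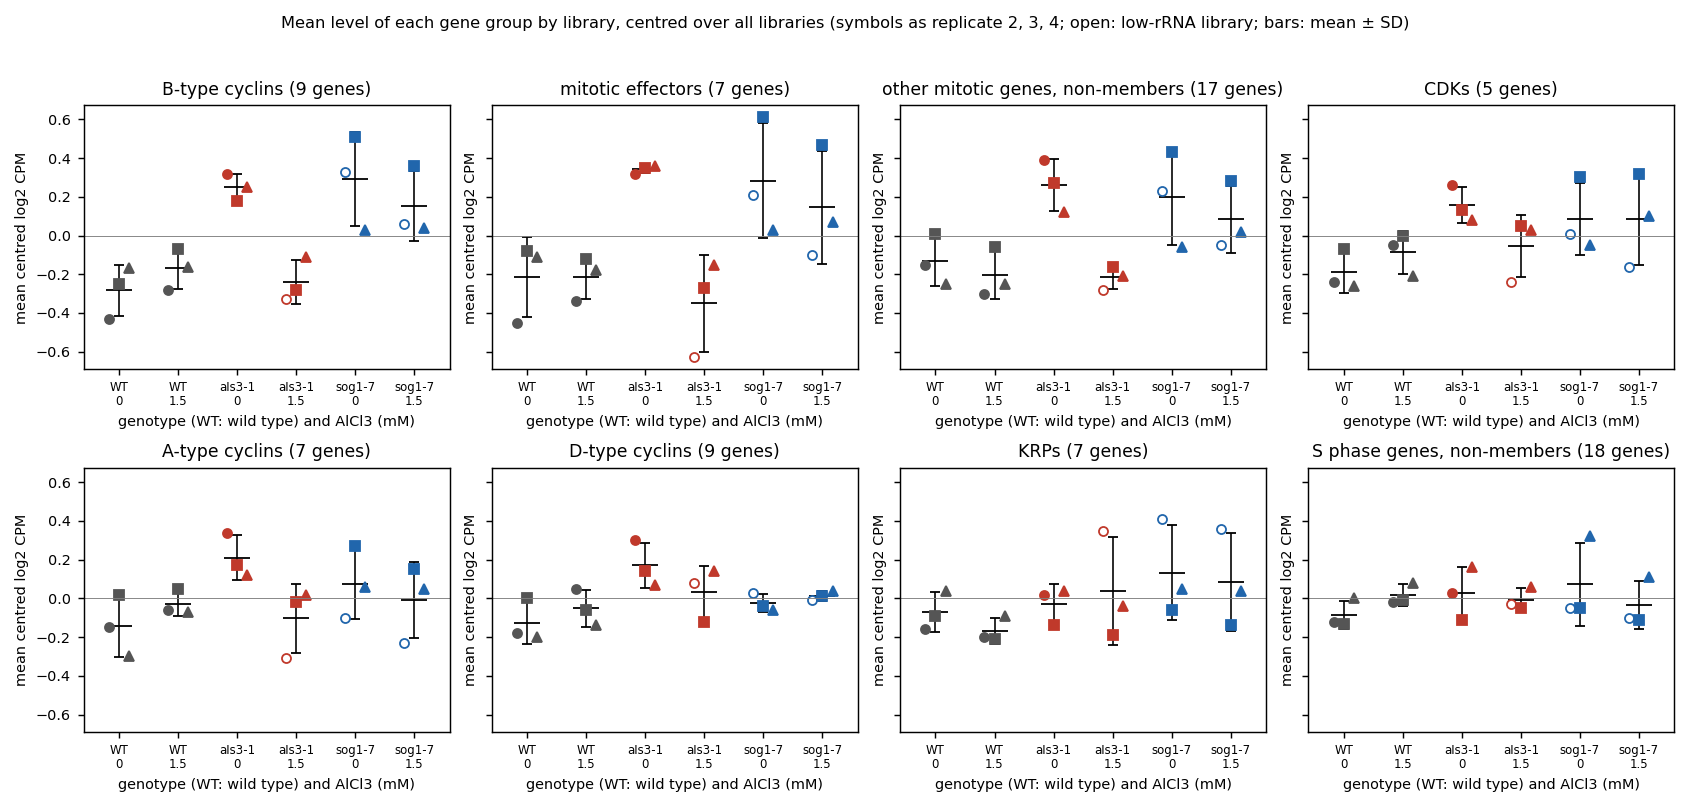
Mean log2 CPM of each gene group in each library after centring every gene over the 18 libraries, with symbols for replicates 2, 3 and 4, open symbols for low-rRNA libraries and bars for mean ± SD of 3 libraries. B-type cyclins in als3-1 lie at 0.18 to 0.32 at 0 mM and at -0.33 to -0.11 at 1.5 mM, and the wild type libraries lie below 0 at both concentrations.

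In wild type and in sog1-7 no member was called between 0 and 1.5 mM AlCl3. In wild type 1.88% of all genes were called, and edgeR and DESeq2 each called 0 members (DESeq2 called 3.14% of all genes), with 1 member at an unadjusted p under 0.05. This was KRP5, at 4.33, 4.53 and 4.21 CPM and then at 2.71, 3.7 and 3.32 (-0.43 ± 0.17, adjusted p = 0.327). In sog1-7 1.19% of all genes were called, edgeR and DESeq2 again called 0 members (2.37% of all genes with DESeq2), and 0 had an unadjusted p under 0.05. CYCB1;3 was at 9.98, 10.3 and 10.1 CPM in untreated and 9.87, 11.3 and 10.5 in treated wild type. In sog1-7 it was at 18.3, 21.6 and 15 CPM untreated and at 15.2, 19.1 and 15.5 treated, and the values overlapped within each genotype. HIK was at 60.3, 72.7 and 70.8 CPM in untreated and 72.2, 83.2 and 71.2 in treated wild type, and at 87.8, 129 and 83.5 in untreated and 72.6, 127 and 88.9 in treated sog1-7. AUR2 was at 14.6, 19.4 and 20.3 and then 14.8, 18.7 and 16.8 CPM in wild type, and at 21.5, 27.8 and 20.4 and then 18.6, 26.9 and 21.1 in sog1-7. Both overlapped in each genotype, and the median of the 7 effectors was -0.02 in wild type and -0.12 in sog1-7, against -0.61 in als3-1. The median of the 9 B-type cyclins was 0.08 in wild type and -0.16 in sog1-7, against -0.55 in als3-1. AGP30 fell in both (-1.33 ± 0.24 in wild type and -1.37 ± 0.24 in sog1-7), as 1 of 5 root markers, and its part was not tested. Differences in wild type were 0.11 ± 0.11 for CDKA;1, -0.02 ± 0.22 for WEE1, 0.10 ± 0.15 for KRP6 and -0.04 ± 0.10 for CCS52A1. In sog1-7 they were 0.06 ± 0.11, -0.36 ± 0.22, 0.03 ± 0.15 and -0.10 ± 0.10.

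The difference of the aluminium response itself was called for 1 member between als3-1 and wild type, with 0.402% of all genes called. For CYCB1;3 the response of als3-1 was 0.89 ± 0.18 log2 units below that of wild type (-0.89, adjusted p = 0.0497). The adjusted p was 0.0571 with RLE scaling, 0.0681 without the filter and 0.138 without the low-rRNA libraries, and the call was lost in 15 of 18 fits that left out 1 library (0.0525 to 0.144), including each of the 12 als3-1 and wild type libraries. CYCB2;3 had the same estimate, -0.89 ± 0.22, and did not pass (adjusted p = 0.125, and 0.0254 with DESeq2). Between als3-1 and sog1-7, 0 members passed with edgeR, 9 had an unadjusted p under 0.05, and 1.15% of all genes were called. The count was 1 without sog1-7 0 mM replicate 3. CYCB1;3 there had -0.69 ± 0.18 (adjusted p = 0.107), which passed with the block (adjusted p = 0.0394) and with DESeq2 (adjusted p = 0.0374). For KRP6 the response of als3-1 was above that of sog1-7 by 0.65 ± 0.21 (adjusted p = 0.223) and above that of wild type by 0.58 ± 0.21 (adjusted p = 0.439). The response of sog1-7 less that of wild type gave 0 members with edgeR and 0 with DESeq2, and 0 at an unadjusted p under 0.05, beside 0.00462% and 0.0109% of all genes. For members other than CYCB1;3 a different response between genotypes was thus not shown by edgeR.

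Without aluminium, both mutants had more RNA of several mitotic genes than wild type. Both comparisons use the same 3 wild type libraries. In als3-1, 4 members were higher and 0 lower, against 2.32% of all genes called, 0.855% higher and 1.46% lower. They were CYCB1;3 (0.63 ± 0.13, adjusted p = 0.021), CYCB1;2 (0.54 ± 0.13, adjusted p = 0.0371), CYCB2;3 (0.62 ± 0.15, adjusted p = 0.0472) and CDKB2;2, a kinase of the G2 to M transition (0.52 ± 0.12, adjusted p = 0.0296). CYCB1;3 went from 9.98, 10.3 and 10.1 CPM in wild type to 16.1, 15.1 and 15.6, and CDKB2;2 from 12.2, 14.5 and 13.8 to 21.4, 19.2 and 17.7. Neither overlapped. The median of the members was 0.36, with 43 of 50 above 0, beside a median of 0.00 over all genes. Values without overlap were higher in als3-1 for 24 members, against 10.3% of all genes. As many as 13 members passed once the block was added (7.37% of all genes), and 8 once the low-rRNA libraries were left out (4.74%). Neither group of this comparison holds a low-rRNA library, so the libraries compared were the same in that fit. The count was 0 without any 1 of the wild type 0 mM libraries or without als3-1 0 mM replicate 2 or 3. It was 1 without als3-1 0 mM replicate 4 and 7 without sog1-7 0 mM replicate 4.

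The mitotic effectors of untreated als3-1 all had estimates above wild type, from 0.38 to 0.79 with a median of 0.51, and 0 of 7 passed by edgeR while 6 had an unadjusted p under 0.05. HIK was at 60.3, 72.7 and 70.8 CPM in wild type and at 124, 118 and 110 in als3-1. The groups did not overlap, and the difference of 0.79 ± 0.21 was close to the threshold (adjusted p = 0.0633, 0.0101 with the block and 0.0144 with DESeq2). TPX2 was at 32.7, 42.6 and 40.4 CPM in wild type and at 57.6, 50.7 and 56.4 in als3-1 (0.51 ± 0.16, adjusted p = 0.104, and 0.0333 with the block). CDC20.2 was at 17.8, 23.3 and 22.2 CPM against 31.7, 33.4 and 34.1 (0.65 ± 0.22, adjusted p = 0.139, and 0.0248 with the block), and CDC20.1 at 43.8, 55.5 and 59.4 against 67.8, 84.4 and 84.7 (0.58 ± 0.22, adjusted p = 0.201, and 0.0202 with the block). In all 7 effectors each als3-1 library lay above each wild type library. KNOLLE went from 36.5, 46.5 and 48.4 to 59.6, 62.5 and 61.5 CPM (0.48 ± 0.14, adjusted p = 0.089, and 0.031 with DESeq2). CCS52B, at 24.3, 25.5 and 28.2 CPM against 35, 34.1 and 38.1, had a difference of 0.46 ± 0.12 (adjusted p = 0.0552, and 0.0259 with the block).

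In sog1-7 at 0 mM, 9 members were higher than in wild type and 0 lower, against 10.2% of all genes called, 5.29% higher and 4.92% lower. The B-type cyclins were CYCB2;4 (0.93 ± 0.23, adjusted p = 0.0204), CYCB1;3 (0.85 ± 0.13, adjusted p = 0.000978), CYCB2;2 (0.71 ± 0.18, adjusted p = 0.0188), CYCB2;3 (0.67 ± 0.15, adjusted p = 0.0121) and CYCB1;2 (0.60 ± 0.13, adjusted p = 0.0069). CYCB2;4 was at 16.9, 21 and 24 CPM in wild type and at 52.6, 40.2 and 25 in sog1-7, where replicate 4 was just above the highest wild type library. Its highest value, in replicate 2, is that of the low-rRNA library. The kinases CDKB2;1 (0.59 ± 0.13, adjusted p = 0.0107) and CDKB2;2 (0.48 ± 0.12, adjusted p = 0.0176), KNOLLE (0.58 ± 0.14, adjusted p = 0.0167) and CYCD2;1 (0.42 ± 0.09, adjusted p = 0.00729), a cyclin of cycle entry, were the others. CYCD2;1 was at 29.8, 30 and 31.2 CPM in wild type and at 45.2, 38.1 and 38.6 in sog1-7, with no overlap. The median of the members was 0.36, beside -0.01 over all genes, and 20 were higher without overlap, against 14.2% of all genes. On leaving out the low-rRNA libraries 11 members were called (12.8% of all genes), 5 of them among the 9. The calls of CYCB2;4 (adjusted p = 0.0561), CYCB2;2 (0.0565), CDKB2;2 (0.0505) and KNOLLE (0.0601) ended there. The count was 4 without wild type 0 mM replicate 2, 5 without sog1-7 0 mM replicate 2 and 4 without sog1-7 0 mM replicate 3.

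In sog1-7 the mitotic effectors other than KNOLLE did not pass in the main fit. All 7 estimates were above 0 all the same (0.34 to 0.64, median 0.56), and 6 did not overlap with wild type. With the block HIK (adjusted p = 0.0301), CDC20.1 (0.00495), CDC20.2 (0.016) and TPX2 (0.0227) passed, though the numbers were not taken to pair these samples. KNOLLE was at 36.5, 46.5 and 48.4 CPM in wild type and at 76.3, 69.1 and 51.1 in sog1-7. The highest value is that of the low-rRNA library, and KNOLLE did not pass with the low-rRNA libraries left out (edgeR adjusted p = 0.0601). HIK was at 87.8, 129 and 83.5 CPM in sog1-7 and had a difference of 0.56 ± 0.21 (adjusted p = 0.108, and 0.0313 with the low-rRNA libraries left out). CDC20.1, at 73.9, 107 and 66.5 CPM, had 0.64 ± 0.22 (adjusted p = 0.0759). CDC20.2, at 27.1, 45.9 and 25.3, had 0.63 ± 0.22 (adjusted p = 0.0756). They passed with DESeq2 (adjusted p = 0.0424 and 0.0439) and with the low-rRNA libraries left out (adjusted p = 0.0392 and 0.0274). In both genes replicate 3 was the highest by a wide margin. TPX2, at 53.6, 62.5 and 45.5 CPM, had 0.48 ± 0.16 (adjusted p = 0.0618, and 0.0351 with DESeq2). KRP1 was at 9.9, 13.1 and 13.9 CPM in wild type and at 36.6, 13.7 and 14.9 in sog1-7, where the high value is the low-rRNA library, and its difference of 0.82 became 0.22 on leaving those libraries out.

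CYCB1;1, CDKA;1, WEE1, KRP6 and CCS52A1 did not pass in either mutant at 0 mM. CYCB1;1 differed from wild type by 0.48 ± 0.20 in als3-1 (adjusted p = 0.256) and by 0.44 ± 0.20 in sog1-7 (adjusted p = 0.185). With the low-rRNA libraries left out it passed in both, at 0.48 (adjusted p = 0.0278) and 0.61 (adjusted p = 0.00701). For als3-1 that fit compared the same libraries. KRP6 differed by 0.07 ± 0.15 and 0.09 ± 0.15, CDKA;1 by -0.07 ± 0.11 in both, WEE1 by 0.37 ± 0.22 and 0.31 ± 0.22, and CCS52A1 by -0.01 ± 0.10 and -0.19 ± 0.10. Among the further mitotic genes, BUBR1 was higher in als3-1 (0.59 ± 0.14, adjusted p = 0.0429), and BUBR1 (0.65 ± 0.14, adjusted p = 0.00922), PANS1, a protector of sister chromatid cohesion (0.62 ± 0.14, adjusted p = 0.0125), and OSD1, an inhibitor of the anaphase-promoting complex (0.97 ± 0.25, adjusted p = 0.0248), in sog1-7. Of the replication genes, CDT1B alone was called, higher in sog1-7 (0.70 ± 0.20, adjusted p = 0.0397).

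Photosynthesis markers moved with genotype at 0 mM. The summed level of 7 such genes was 24200 to 31200 CPM in wild type, 8420 to 16400 in als3-1 and 5570 to 9210 in sog1-7, with 3 of 7 lower in als3-1 and 7 of 7 lower in sog1-7 by the test, and none was at 0. Their part in the higher values of the mitotic genes was not tested. Of 6 root meristem and 5 root markers, 0 were called in either comparison by edgeR, but 2 of the root markers had an unadjusted p under 0.05 in als3-1. Of 6 stomatal lineage markers 0 were called in either mutant. In als3-1 all 6 estimates were below 0 (median -0.54), 4 of them with an unadjusted p under 0.05. In sog1-7, 4 of the 6 were below 0 (median -0.22), and 2 of the 6 had an unadjusted p under 0.05. The part of these markers was not tested either. Between als3-1 and sog1-7 at 0 mM, edgeR and DESeq2 each called 0 members (DESeq2 2.04% of all genes), 2 had an unadjusted p under 0.05, and 0.351% of all genes were called. These 2 were KRP3 (0.46 ± 0.16, adjusted p = 0.254) and CYCD4;1, a D-type cyclin (1.01 ± 0.44, adjusted p = 0.387).

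With aluminium, als3-1 had less RNA of 3 B-type cyclins than sog1-7 and more of KRP6 and CCS52A2. These 5 members compare with 6.69% of all genes called, 3.97% lower and 2.72% higher. Lower values without overlap were found for 14 members, against 12.3% of all genes. CYCB1;3 was at 8.06, 9.1 and 9.23 CPM in als3-1 and at 15.2, 19.1 and 15.5 in sog1-7. The groups are far apart, and the difference was -0.91 ± 0.13 (adjusted p = 0.000567). CYCB2;3 was at 13.1, 11.8 and 15.7 CPM against 19.1, 24 and 18 (-0.59 ± 0.15, adjusted p = 0.0311), and CYCB1;2 at 30, 27.9 and 31.6 against 41.4, 45.7 and 38.4 (-0.49 ± 0.13, adjusted p = 0.0289). KRP6, at 14.1, 13.9 and 11.3 CPM against 8.89, 6.85 and 9.51, was higher by 0.64 ± 0.15 (adjusted p = 0.0161). CCS52A2, an activator of the anaphase-promoting complex that acts in the root meristem, was at 6.9, 6.73 and 5.37 CPM against 4.49, 4.54 and 4.46, higher by 0.50 ± 0.12 (adjusted p = 0.0252). CCS52A2 overlaps another annotated gene on its strand, so its counts are uncertain.

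Several more members passed in that comparison with the replicate number as a block, which called 17, 13 lower and 4 higher, beside 14.5% of all genes. They included AUR1 (-0.58, adjusted p = 0.00568), HIK (-0.56, adjusted p = 0.0332), CDKA;1 (0.26, adjusted p = 0.0168) and CYCB1;1. CYCB1;1 was at 19.7, 34.4 and 27.4 CPM in als3-1 and at 13.2, 20 and 18.7 in sog1-7, and overlapped in 1 library. Its difference of 0.65 ± 0.20 did not pass (adjusted p = 0.0602), and passed with the block (adjusted p = 0.0157), with DESeq2 (adjusted p = 0.0281) and with the low-rRNA libraries left out (0.67, adjusted p = 0.0137). HIK was at 47.8, 70.8 and 75.4 CPM against 72.6, 127 and 88.9, and overlapped. AUR1 was at 13.6, 17.1 and 18.5 CPM in als3-1, each below each sog1-7 library. Without the block HIK had -0.57 ± 0.21 (adjusted p = 0.122) and AUR1 -0.59 ± 0.19 (adjusted p = 0.0686). All 7 effectors had estimates below 0 (median -0.47), 6 with an unadjusted p under 0.05, and 0 passed by edgeR while AUR1 (adjusted p = 0.0404) and KNOLLE (adjusted p = 0.0416) passed with DESeq2. WEE1 differed by 0.34 ± 0.22 (adjusted p = 0.447) and CCS52A1 by 0.29 ± 0.10 (adjusted p = 0.103, and 0.0472 with DESeq2). On leaving out the low-rRNA libraries 2 members were called (4.39% of all genes), and CYCB1;3 alone was among the 5, and the count was 2 without als3-1 1.5 mM replicate 2 and 1 without als3-1 1.5 mM replicate 3 or sog1-7 1.5 mM replicate 3. BUBR1 (-0.57 ± 0.14, adjusted p = 0.0257) and CDT1B (-0.78 ± 0.20, adjusted p = 0.0299) were lower in als3-1, and SMR7 was 4.78 ± 0.49 higher (adjusted p = 2.84e-05). Root markers were lower in als3-1 in 4 of 5 and root meristem markers in 2 of 6, with summed levels of 5520 to 9070 against 5560 to 7890 CPM and of 121 to 129 against 140 to 142 CPM. Most of the root marker sum was again PYK10, which was not among the 4. Of the photosynthesis markers 1 of 7 was higher in als3-1 and all 7 estimates were above 0 (median 0.86), with summed levels of 15200 to 19000 against 9350 to 12100 CPM. None of these markers was at 0, and their part was not tested.

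Against wild type at 1.5 mM, where 3 wild type libraries are again shared, als3-1 differed in 1 member and sog1-7 in 5. KRP6 was at 7.6, 8.9 and 8.53 CPM in wild type and higher in als3-1 by 0.65 ± 0.15 (adjusted p = 0.0165, and 0.0572 without the low-rRNA libraries), with 5.58% of all genes called, 2.55% higher and 3.03% lower. Its call ended without wild type 1.5 mM replicate 2 or als3-1 1.5 mM replicate 2 or 3 (adjusted p = 0.0641 to 0.0781). The count was 2 without sog1-7 0 mM replicate 2, sog1-7 1.5 mM replicate 2 or sog1-7 1.5 mM replicate 4. With the low-rRNA libraries left out 1 member was called (5.15% of all genes), CYCB1;1 in place of KRP6. With the block 4 members passed (11.6% of all genes), KRP6, CYCB1;1 (0.56, adjusted p = 0.0386), CYCD2;1 (0.30, adjusted p = 0.038) and KRP3 (-0.54, adjusted p = 0.0333). The difference of CYCB1;1 without the block was 0.58 ± 0.20 (adjusted p = 0.105), and 0.78 with the low-rRNA libraries left out (adjusted p = 0.00397). CDKA;1 differed by 0.13 ± 0.11, WEE1 by 0.31 ± 0.22 and CCS52A1 by 0.05 ± 0.10. The B-type cyclins that fell with aluminium in als3-1 were thus not called below treated wild type, and CYCB1;3 stood at 9.87, 11.3 and 10.5 CPM there. Root markers were lower in als3-1 in 4 of 5 and root meristem markers in 2 of 6, with summed levels in wild type of 4740 to 5690 and 108 to 141 CPM. Here too most of the root marker sum was PYK10, which was not among the 4. Of the photosynthesis markers 1 of 7 was lower in als3-1 and all 7 estimates were below 0 (median -1.05), with summed levels of 15200 to 19000 CPM against 14400 to 31800 in wild type. The part of these markers was not tested.

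In sog1-7 at 1.5 mM, 5 members were higher than in wild type and 0 lower, against 7.4% of all genes called, 3.75% higher and 3.65% lower. They were CYCB1;3 (0.65 ± 0.13, adjusted p = 0.00836), CYCD2;1 (0.43 ± 0.09, adjusted p = 0.00981), KRP7 (0.64 ± 0.18, adjusted p = 0.0397), KNOLLE (0.50 ± 0.14, adjusted p = 0.0414) and CDKB2;2 (0.41 ± 0.12, adjusted p = 0.0416). CYCD2;1 was at 29.5, 32.3 and 29.9 CPM in wild type and at 41.2, 43.3 and 39.2 in sog1-7, with no overlap. KRP7 was at 2.65, 2.62 and 3.32 CPM against 4.63, 4.85 and 3.92, also with no overlap. KNOLLE was at 42.7, 43.3 and 45.3 CPM against 62.3, 69.5 and 54.4, and each sog1-7 library was above each wild type library. CCS52A2, at 5.81, 6.17 and 6.09 CPM against 4.49, 4.54 and 4.46, was lower in each sog1-7 library and had -0.42 ± 0.12, which did not pass by edgeR without the block (adjusted p = 0.0521) and passed with DESeq2 (adjusted p = 0.0267). With the block 8 members passed (16.7% of all genes), adding CYCB1;2 (0.40, adjusted p = 0.0421), CDC20.1 (0.43, adjusted p = 0.0436) and, lower in sog1-7, CCS52A2 (adjusted p = 0.0275). Leaving out the low-rRNA libraries gave 5 calls (10.8% of all genes), 3 of them among these 5. The count was 2 to 3 without any 1 of the wild type 1.5 mM libraries, 2 without sog1-7 1.5 mM replicate 2 or 4, 0 without sog1-7 1.5 mM replicate 3, 2 without als3-1 0 mM replicate 3 and 3 without sog1-7 0 mM replicate 3. CYCB1;1 differed by -0.07 ± 0.20, KRP6 by 0.01 ± 0.15, CDKA;1 by -0.13 ± 0.11, WEE1 by -0.03 ± 0.22 and CCS52A1 by -0.24 ± 0.10 (adjusted p = 0.158), none called. BUBR1 was higher (0.50 ± 0.14, adjusted p = 0.0432) and SMR7 lower (-1.80 ± 0.47, adjusted p = 0.032). Photosynthesis markers were lower in 4 of 7, with summed levels of 14400 to 31800 CPM in wild type and 9350 to 12100 in sog1-7, and their part was not tested.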

How the data were processed

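Whole-number read counts per gene were deposited by the authors, and the submitters' processing notes name STAR 2.7.3a, featureCounts 2.0.0, FastQC 0.11.7, DESeq2 1.36.0 and the build TAIR10. FPKM values, scaled to transcript length and library size, were deposited too, and the same notes name Cufflinks 2.2.1. The kit was directional, per the labels' protocols, but whether counting used strand, and how it treated reads with several matches, is not given in the sources used here. Hence 17 members that overlap another gene (14 on the opposite strand) and adjacent copies such as CDC20.1 and CDC20.2 are uncertain. Of 32535 genes in both the FPKM files and the TAIR10.1 annotation, 32519 (99.95%) had the same start and end, and promoter sequences were read from the RefSeq TAIR10.1 genome. In 18 within-group pairs of libraries the lowest chi-square per degree of freedom was 16.96, over genes with at least 20 counts, so no pair looked like one library deposited again.

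Counts were tested with edgeR 4.0.16 in R 4.3.3 (limma 3.58.1), with TMM scaling, filterByExpr by group, a robust quasi-likelihood model of the 18 libraries with 1 mean for each group, and Benjamini-Hochberg adjustment over 21650 genes at 0.05. The common biological coefficient of variation was 0.214. CPM values use the TMM-scaled totals. On simulated counts for the aluminium comparison in als3-1 (21440 genes), 70% of changes of size 1 and 100% of size 2 on the log2 scale were recovered, with 6 false among 176 calls. The changes were placed only in genes with an average log2 CPM above 1. Libraries were drawn independently, without replicate pairs or low-rRNA libraries. Member differences in this comparison ran from -0.91 to 0.74, below the sizes simulated, so these recovery rates do not cover them. Alternatives were RLE scaling, DESeq2 1.42.0, no filter, the replicate number as a block, leaving out the 3 low-rRNA libraries, and leaving out each library. The labels number the replicates 2, 3 and 4 in every group. Deviations from the group mean correlated by over 0.1 in 43 of 45 same-numbered pairs (-0.0496 to 0.755). The highest values, 0.69, 0.723 and 0.755, were those of the pairs among the 3 low-rRNA libraries, where pairing and a shared library property cannot be told apart. The numbers were taken to pair the samples in 10 of 12 comparisons, not in those of sog1-7 with wild type at 0 mM or in response. The main fit holds no block all the same, so its calls come from an unpaired model.

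The members and lists were chosen with earlier results of these data known. Members called in a comparison are named, CYCB1;1, CDKA;1, WEE1, KRP6 and CCS52A1 always, of a role group with no call the member with the highest mean log CPM, and of the other lists at most 4 genes per comparison. Promoters are shown for the 3 members called most often and CYCB1;1. Members named outside this rule, such as KRP1 and those called by an alternative alone, were chosen after their values were seen. Genes whose name did not match the reference (5) were left out of the lists.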

Additional observations from a re-analysis of the deposited data

Results flagged for a closer look

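For CYCB1;3 the response to aluminium differed between als3-1 and wild type by the test of the difference itself, -0.89 ± 0.18 on the log2 scale (edgeR adjusted p = 0.0497, n = 3 in each of 4 groups). Its level went from 15.1 to 16.1 CPM down to 8.06 to 9.23 in als3-1 and was 9.98 to 10.3 and then 9.87 to 11.3 in wild type. The untreated groups did not overlap, and in the treated groups als3-1 was the lower. Over the alternatives its adjusted p ranged from 0.00366 with DESeq2 to 0.144 on leaving out 1 library.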

How the results depend on the processing

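No difference of a member that passed reversed its sign under any alternative. Of the 38 calls of members over 12 comparisons, 38 remained with the replicate block and with DESeq2, 36 with RLE scaling, 30 without the filter and 21 without the low-rRNA libraries, and 7 remained in all 18 fits that left out 1 library each. Those 7 are CYCB1;3, CYCB2;3 and KRP6 for aluminium in als3-1, CYCB1;2, CYCB1;3 and CYCD2;1 for sog1-7 against wild type at 0 mM, and CYCB1;3 for als3-1 against sog1-7 at 1.5 mM. Counts of called members moved over 1.5 times as follows. For the response of als3-1 less that of wild type (1), it was 0 with RLE scaling, without the filter and without the low-rRNA libraries, and 2 with DESeq2. For the response of als3-1 less that of sog1-7 (0), it was 1 with DESeq2 and 1 with the block. At 0 mM, als3-1 against wild type (4) gave 11 with DESeq2, 13 with the block and 8 without the low-rRNA libraries, and sog1-7 against wild type (9) gave 15 with DESeq2 and 18 with the block. At 1.5 mM, als3-1 against wild type (1) gave 2 with DESeq2 and 4 with the block, sog1-7 against wild type (5) gave 8 with DESeq2, 2 without the filter and 8 with the block, and als3-1 against sog1-7 (5) gave 10 with DESeq2, 17 with the block and 2 without the low-rRNA libraries. The block called more of all genes too, such as 7.37% beside 2.32% for als3-1 against wild type at 0 mM. DESeq2 called 2.04% beside 0.351% for als3-1 against sog1-7 at 0 mM. For the DESeq2, RLE and no-filter counts of this list, and for its counts of the responses, the share over all genes under that setting is not given. It is not given either for the block count of sog1-7 against wild type at 0 mM. The counts of this list are thus not read as a result about the members, and the cause of their moves was not tested. Leaving out 1 library gave 4 to 14 members for aluminium in als3-1, 0 to 7 and 4 to 11 for als3-1 and sog1-7 against wild type at 0 mM, 0 to 2 and 0 to 7 at 1.5 mM, 1 to 6 for als3-1 against sog1-7 at 1.5 mM, and 0 to 1 for the responses of als3-1 less wild type and less sog1-7. It gave 0 to 0 for the 4 other comparisons. A group with 2 libraries left shares the spread of the others. The block added calls and ended none. Depth limits CYCD7;1 (0 to 0.47 CPM), where 3 counts are 0.0673 to 0.117 CPM.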
